A study of Caenorhabditis elegans with 2 samples.

Results

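The 336 tRNA genes on the autosomes of Caenorhabditis elegans were described here by where a tagged transcription factor, SPTF-2, was found along the genome. They were taken as every nuclear gene of biotype tRNA off the X chromosome in Ensembl release 115, and they are 336 of the 612 nuclear tRNA genes and of 46890 annotated nuclear genes. The measurements come from chromatin immunoprecipitation sequencing (ChIP-seq), in which chromatin is sheared, the fragments held by a protein are pulled down and sequenced, and a peak is called where reads pile up. The animals were of strain OP769. They carried the unc-119(tm4063) allele and the transgene wgls769, which holds sptf-2 joined to TY1, EGFP and 3xFLAG tags together with a working unc-119 copy. Populations of mixed sex were grown from starved L1 larvae and taken as young adults at 64.5 h, and the pull-down went through GFP. There was 1 group of 2 biological replicates and no second condition. The labels do not say how the cultures were kept apart, so the spread between replicates may be partly technical. A native copy of sptf-2 is not described in the labels, and whole animals were used, so no tissue can be assigned to a peak.

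SPTF-2 has zinc fingers and belongs to the Sp proteins. Their mammalian members bind GC-rich promoter elements and act at genes read by RNA polymerase II. tRNA genes are read by RNA polymerase III. Their promoter lies inside the gene: the A box near the start and the B box further in are bound by TFIIIC, which brings TFIIIB and then the polymerase, and a run of T after the gene ends transcription. The isotype of a tRNA is the amino acid it carries, and it is read from the anticodon, the 3 bases that pair with the messenger codon.

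The genes that the results below turn on are printed here 5′ to 3′ on the transcribed strand, so that the promoter boxes inside them can be seen, with the A box (searched as TNGNNNANN in the first 25 bases) and the B box (GTTCNANNC) in capitals. Sequences are from the RefSeq genome of WBcel235, the same assembly as ce11. The 1st is the alanine gene with the strongest peak of all members (V:9318202-9318273, plus strand). The others, in order, are a proline gene (IV:14225102-14225173, plus), a lysine gene (V:15465086-15465158, plus), a leucine gene near sptf-2 itself (II:8631957-8632040, minus), a threonine gene (V:2664667-2664738, minus) and an alanine gene (II:5292332-5292403, plus). The last is the selenocysteine gene (IV:658181-658266, plus), where no A box of the searched letters was found.
F44A2.t1: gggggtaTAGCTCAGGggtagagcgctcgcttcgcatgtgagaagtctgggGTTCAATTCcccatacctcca
F02H6.t1: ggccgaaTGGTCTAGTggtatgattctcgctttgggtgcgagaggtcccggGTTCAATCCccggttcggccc
T23F1.t1: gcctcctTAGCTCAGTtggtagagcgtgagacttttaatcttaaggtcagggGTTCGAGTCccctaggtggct
T22C8.t1: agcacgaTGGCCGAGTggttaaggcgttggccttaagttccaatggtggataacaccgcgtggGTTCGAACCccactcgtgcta
W02G9.t1: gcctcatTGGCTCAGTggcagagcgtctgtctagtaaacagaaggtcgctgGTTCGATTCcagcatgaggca
ZK622.t1: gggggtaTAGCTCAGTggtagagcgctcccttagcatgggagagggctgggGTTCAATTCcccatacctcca
K11H12.t1: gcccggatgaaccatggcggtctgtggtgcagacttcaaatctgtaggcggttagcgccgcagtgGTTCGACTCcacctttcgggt

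Most autosomal tRNA genes lay at a peak. A gene was counted when a peak's summit, the position the submitters give as its highest point, fell within 200 bp of the gene's start. In the list called on both replicates together (the pooled list) this held for 247 of 336 genes (73.5%, exact 95% interval 68.5 to 78.2), against 14.3% of all annotated nuclear genes. In replicate 1 it held for 237 genes (70.5%, 65.3 to 75.4) against 14.3%, and in replicate 2 for 227 genes (67.6%, 62.3 to 72.5) against 13.9%. The replicate shares averaged 69.0% ± 2.10 (SD, n = 2). The submitters' optimal list, limited to peaks whose rank held up between replicates, had a summit at 55 of the genes (16.4%, 12.6 to 20.8), against 0.851% of all genes. All these intervals cover counting error over genes only, and the pooled list holds the reads of both replicates, so it is not a further measurement. With 1 group of 2 replicates no test between groups of genes was made, and the shares below are descriptions.

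The same window covered 11.3% of the autosomal base pairs in the pooled list, 11.2% in replicate 1, 11.5% in replicate 2 and 0.148% in the optimal list. Autosomal protein-coding genes, with 15.1% at a pooled summit, were nearer to that share of the sequence. In the pooled list other small RNA genes lay between: 47.9% of 313 autosomal snoRNA genes, which guide RNA modification, 47.6% of 126 snRNA genes, which serve splicing, and 25.7% of 187 miRNA genes. In the optimal list the snoRNA share of 17.9% (13.8 to 22.6) stood above the 16.4% of the autosomal tRNA genes, with overlapping intervals, and the shares of snRNA and miRNA genes were 10.3% and 1.60%. The 276 tRNA genes on X had a pooled summit in 76.1% of cases (70.6 to 81.0), a replicate 1 summit in 73.6% and a replicate 2 summit in 72.5%. Intervals of X and autosomal genes overlapped in each list. In the optimal list the X share was 21.7% (17.0 to 27.1).

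The replicates listed many of the same tRNA genes. A summit was present in both replicates at 185 genes (55.1%, 49.6 to 60.5), against 6.11% of all annotated nuclear genes. It was present in replicate 1 alone at 52 (15.5%), in replicate 2 alone at 42 (12.5%) and in neither at 57 (17.0%). Shares over all genes were not counted for these classes. On X, both replicates had a summit at 64.1% of the tRNA genes (58.2 to 69.8). The optimal list keeps peaks whose rank held up between replicates, so its overlap with both is largely set in advance. Of its 55 genes, 54 had a summit in both replicates. The exception was C12C8.t3, a glycine gene in an intron of cbl-1, with a signal of 109 in the pooled list and 78.5 in replicate 1. The nearest summit of replicate 2 lay 237 bp from its start. C12C8.t3 shares its pooled and replicate 1 summits with its neighbour C12C8.t4, which had a summit in both replicates (41.2 in replicate 2). At the 185 genes seen in both, the summits of the replicates lay a median of 52 bp apart, and 140 of them (75.7%) were within 100 bp of each other. Across these 185 genes the log2 signal of the replicates had a Pearson r of 0.53 and a Spearman rho of 0.51. This is a correlation across genes, which share their library, control and in part their sequence, and are not independent replicates.

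**Figure D1:**
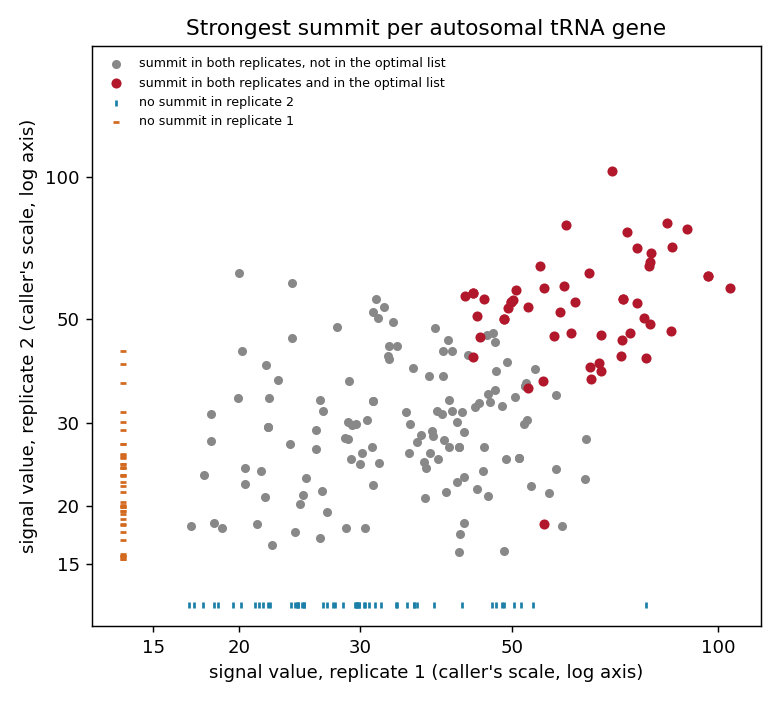
Signal value of the strongest summit within 200 bp of each autosomal tRNA gene in replicate 1 (x) and replicate 2 (y), both on log axes and on the caller's own scale; ticks along the lower and left edges are genes with a summit in 1 replicate only. Genes of the optimal list (red), itself limited to peaks whose rank held up between replicates, gather at the upper right, 54 of 55 with a summit in both. In replicate 1 alone 52 genes have a summit, and in replicate 2 alone 42.

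Peaks at these genes were among the stronger ones of the pooled and replicate lists. The signal value is a score given by the submitters' peak caller and is compared within a list only. In the pooled list the members' strongest summits ran from 28.6 to 170 with a median of 66.2, against a median of 37.5 over all 30000 peaks, and 210 of the 247 (85.0%) lay above that median. In replicate 1 the medians were 38.9 and 22.7, with 206 of 237 (86.9%) above, and in replicate 2 they were 30.4 and 20.6, with 191 of 227 (84.1%) above. In the optimal list, which holds strong peaks by construction, the members' median of 109 was close to the list's 107. The tRNA genes on X had a pooled median of 72.4. The 247 genes used 231 distinct summits, since 16 summits each served a pair of neighbouring genes.

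Among the 3000 strongest peaks, the members with a summit numbered 152 in the pooled list (45.2% of the 336), 136 in replicate 1 (40.5%) and 110 in replicate 2 (32.7%). Of all annotated nuclear genes 2.99%, 2.83% and 2.55% had a peak that strong in these lists. Both replicates ranked 82 of the 336 members that high, against 557 of all 46890 genes (1.19%). Replicate 1 alone ranked 54 members that high and replicate 2 alone 28, for which no share over all genes was counted. The share of autosomal peaks that lay at a member fell with rank. It was 19.1% of the autosomal peaks ranked 1 to 300 in the pooled list (42 of 220), 8.20% at ranks 301 to 1000, 3.39% at 1001 to 3000, 0.835% at 3001 to 10000 and 0.367% at 10001 to 30000. The strongest bin held 15.2% in replicate 1 and 15.7% in replicate 2, and the weakest 0.388% and 0.418%.

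**Figure D2:**
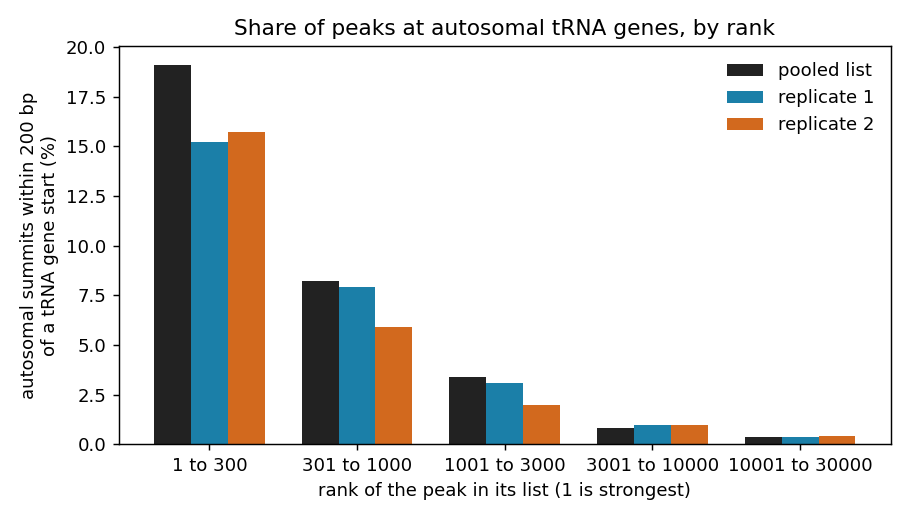
Percentage of autosomal peak summits within 200 bp of an autosomal tRNA gene start (y), by rank of the peak within its list (x), for the pooled list and each replicate. The share falls from 19.1%, 15.2% and 15.7% among the 300 strongest peaks to 0.367%, 0.388% and 0.418% among ranks 10001 to 30000.

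Summits gathered around the gene starts, with less than 50% of them inside the genes. The median autosomal tRNA gene is 72 bp long (68 to 122). Measured along the direction of transcription, the strongest summit lay a median of 22 bp after the gene start in the pooled list, with quartiles at -27 and 63.5 bp, and the median was 22 bp in each replicate too. In the pooled list 105 summits (42.5%) fell inside the gene, 93 (37.7%) before its start and 195 (78.9%) within 100 bp of it. Genes with no other tRNA gene within 500 bp had a median of 28 bp, and genes of the optimal list 27 bp. Peaks have a near constant width in these lists and fragments were 200 to 800 bp long, so a summit is only a coarse position. Counted over all 336 starts, the pooled list had 101 summits per 100 bp within 100 bp of a start and 11.7 per 100 bp beyond 1000 bp, a ratio of 8.67. The ratio was 8.65 in replicate 1 and 7.93 in replicate 2.

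**Figure D3:**
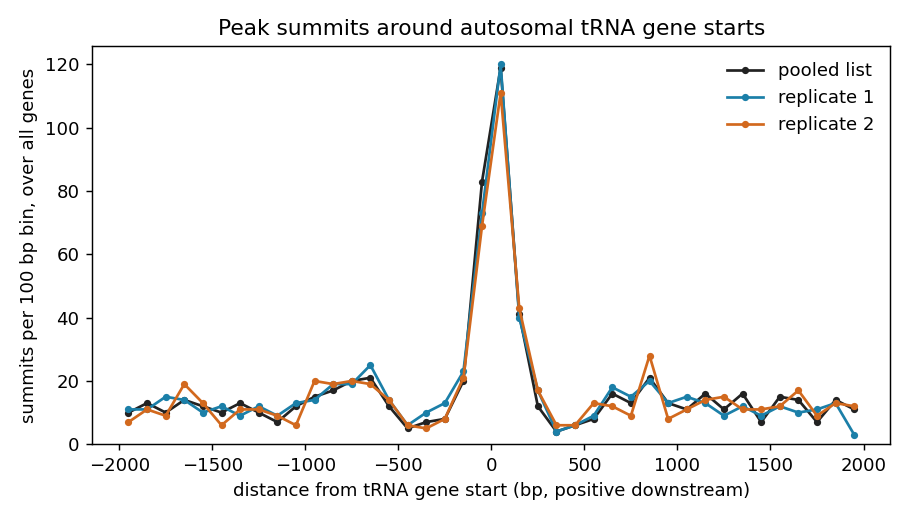
Number of peak summits in bins of 100 bp (y) by distance from the start of the 336 autosomal tRNA genes along the direction of transcription (x), for the pooled list and each replicate. All 3 lists rise in the bins next to the start, with a mean of 101, 96.5 and 90.0 summits per bin within 100 bp, and stay between 3 and 19 per bin beyond 1000 bp.

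The strongest member was F44A2.t1, an alanine gene outside protein-coding genes in the centre of chromosome V, whose sequence occurs once among nuclear tRNA genes. Its peak had a signal of 170 in the pooled list (rank 35 of 30000), 84.1 in replicate 1 (rank 58) and 80.0 in replicate 2 (rank 29), with the summit 29 bp into the gene. The proline gene F02H6.t1 followed with 168 in the pooled list (rank 36), 69.9 in replicate 1 (rank 132) and 103 in replicate 2 (rank 17), the highest signal of any member in that replicate. The cysteine gene K04A8.t3 lies in an intron of twk-10, a potassium channel gene, at V:6559757-6559828, and its signals were 166, 90.0 and 77.7 in the pooled list, replicate 1 and replicate 2. These 3 genes ranked among the 150 strongest peaks of every list, although their order differed between replicates.

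The leucine gene T22C8.t1, in an intron of cutl-12, was the strongest member of replicate 1, with a signal of 104 (rank 28), against 58.2 (rank 142) in replicate 2 and 163 (rank 42) in the pooled list. It lies 4335 bp from sptf-2, the gene that the transgene carries. Reads from the transgene and from the native locus cannot be told apart in a peak list. Within 20000 bp of sptf-2 the pooled list had 5.22 summits per 10 kb against 3.15 for the whole of chromosome II, replicate 1 had 7.12 against 3.15 and replicate 2 had 4.27 against 3.16. The part of extra transgene copies in the peak at T22C8.t1 was not tested.

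The next members by pooled signal were the alanine gene ZK622.t1 (161) and the neighbours T23F1.t1, for lysine, and T23F1.t2, for proline, which share a peak (159, with 96.7 in replicate 1 and 61.6 in replicate 2). After them came 3 threonine genes, W02G9.t1 (149) in an intron of ndx-2, C24H11.t1 (146) and Y39A1A.t1 (145), and the aspartate gene Y54G2A.t3 (145). The list of the 15 strongest closed with F57F5.t1 for isoleucine (139), Y65A5A.t2 for alanine (138), F10C1.t1 for glycine (136) and T28C12.t1 for cysteine (129). All 15 were in the optimal list, and their ranks ran from 28 to 266 in replicate 1 and from 17 to 385 in replicate 2. The 15 were picked by pooled signal, which draws on both replicates, so high standing in the other lists follows in part. Of the 15, 9 lay outside protein-coding genes and 6 in their introns, against 139 and 188 of the 336 members. Chromosome centres held 9 and arms 6, against 170 and 166 of the members. A sequence found once belonged to 6 of the 15, against 86 of the 336. A protein-coding start lay within 500 bp of 10 of the 15, against 92 of the 336 members.

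The share of genes at a peak varied between isotypes, with wide intervals, since most isotypes have few genes. Among the 20 isotypes with at least 5 autosomal genes the pooled share ran from 45.5% to 100%. All 6 cysteine genes had a pooled summit, as did 11 of 12 glutamine, 15 of 17 arginine, 19 of 22 leucine and 24 of 28 lysine genes. At the other end were histidine with 5 of 11 genes (45.5%, 16.7 to 76.6), phenylalanine with 4 of 8 and proline with 12 of 22 (54.5%, 32.2 to 75.6). The order was not steady between replicates. Histidine genes had a summit in 8 of 11 cases in replicate 1 and in 6 in replicate 2, so both exceeded the pooled count, and proline genes ran from 40.9% in replicate 1 to 59.1% in replicate 2. The pooled intervals of all 20 isotypes overlapped.

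Where a peak was present, its strength also varied with isotype. The median pooled signal was 99.7 at the 17 alanine genes with a summit, 97.9 at the 15 threonine genes, 97.1 at the 6 cysteine genes and 81.2 at the 24 lysine genes. It was 39.8 at the 7 tyrosine genes and 38.1 at the 12 proline genes. Proline thus had a low median and the second strongest member. The strongest genes of the isotypes not yet named were Y39B6A.t9 for phenylalanine (118), F56F4.t1 for tyrosine (117), ZC455.t1 for serine (113), F47G6.t1 for arginine (108) and Y43F4A.t2 for asparagine (107). The neighbours Y22D7AL.t3 for methionine and Y22D7AL.t4 for glutamate shared a summit of 105, and Y49E10.t1 for glutamine (97.8), F22G12.t1 for valine (91.7) and Y65A5A.t4 for histidine (88.5) followed. In the optimal list 9 of 21 alanine genes, 9 of 28 lysine genes, 8 of 20 threonine genes and 3 of 6 cysteine genes had a summit, and none of the 11 histidine genes (upper bound of the interval 28.5%). The single selenocysteine gene, K11H12.t1, whose tRNA reads a stop codon in selenoprotein messages, had signals of 72.5, 40.9 and 31.8 in the pooled list, replicate 1 and replicate 2. Its summits lay at -110, -111 and -180 bp, that is before the start. The 2 genes to which the annotation gives no isotype, DY3.t2 and C08E8.t3, had no summit in any list, the nearest pooled one being 1000 bp and 920 bp away.

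**Figure D4:**
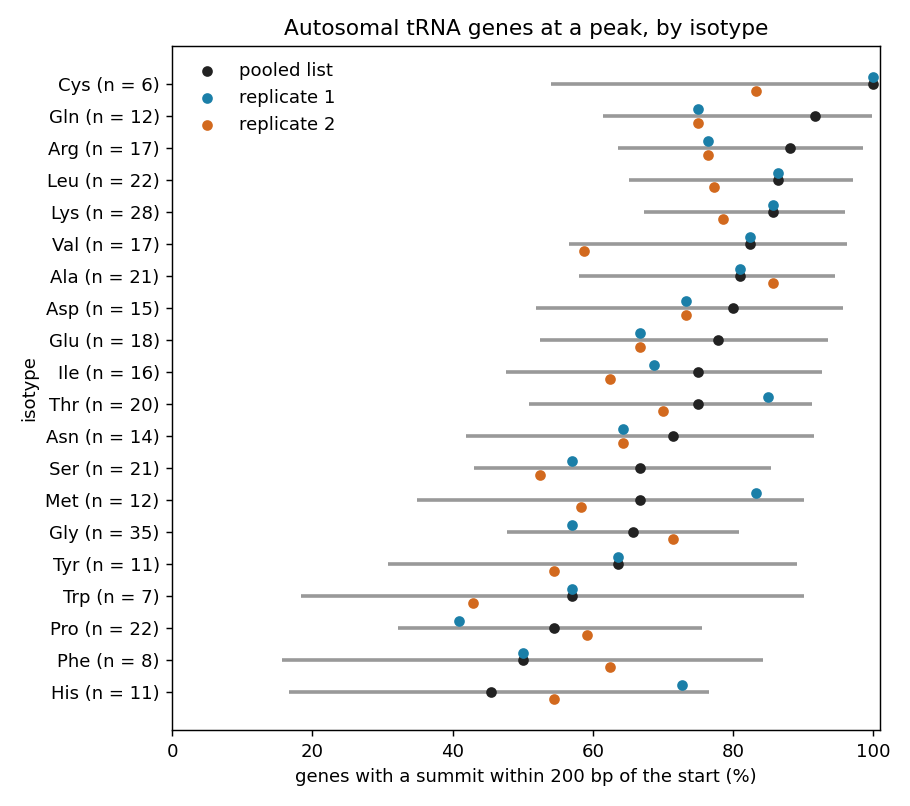
Percentage of autosomal tRNA genes with a summit within 200 bp of the start (x) for each isotype with at least 5 genes (y, number of genes in brackets), in the pooled list and each replicate; grey bars are exact 95% intervals of the pooled share. Pooled shares run from 45.5% (His) to 100% (Cys), all 20 intervals overlap, and the replicates change the order.

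Many tRNA genes are exact copies of each other, and copies did not carry equal peaks. The 336 genes had 137 distinct sequences, and the largest set of identical nuclear genes held 29. There were 23 families of at least 5 identical autosomal genes, with 189 genes, of which 150 (79.4%) had a pooled summit. Every gene had one in 3 families, a lysine family (9 genes), an alanine family (8) and a cysteine family (5). Within families the highest signal was 1.35 to 5.89 times the lowest among the copies with a summit, with a median ratio of 2.63. Each of the 336 genes became unique when 50 bp on either side were added, so copies differ in the sequence around them. How the submitters placed reads that match several copies is not given in the sources used here, and its part in these differences was not tested.

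**Figure D5:**
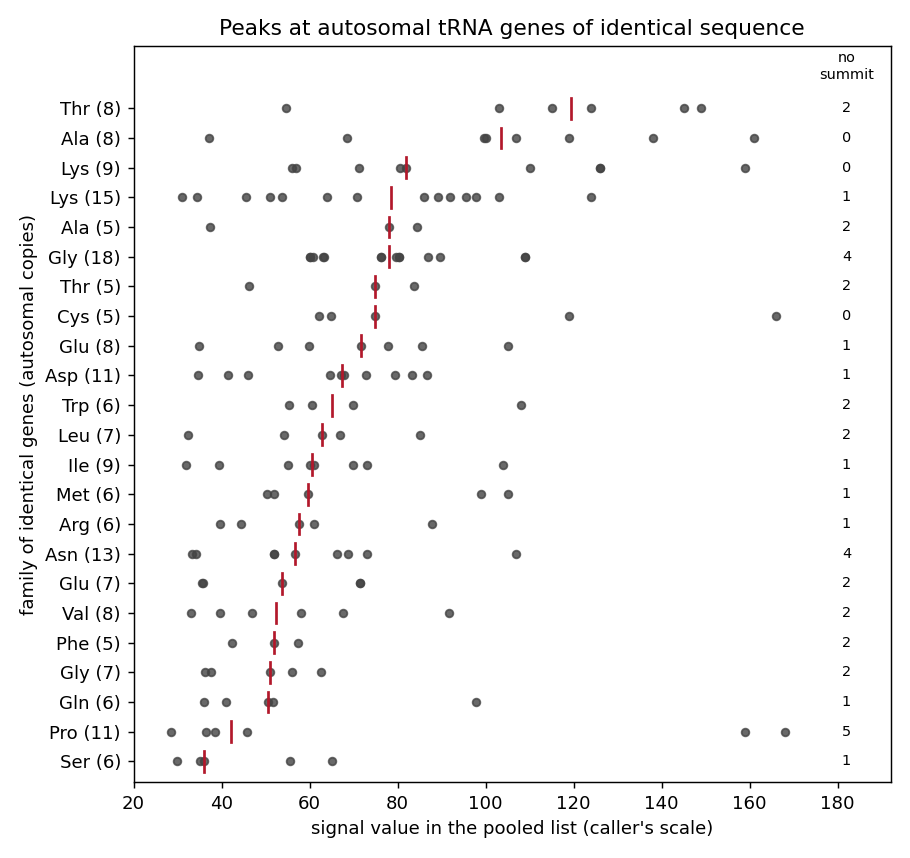
Pooled signal value of each gene with a summit (points, x) in the 23 families of at least 5 identical autosomal tRNA genes (y, isotype and number of autosomal copies), with the family median as a red line and the number of copies without a pooled summit at the right. The widest spread is in the proline family of 11, from 28.6 to 168 with 5 copies lacking a pooled summit.

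The widest spread was in a proline family of 11 autosomal copies, which share the sequence printed above for F02H6.t1. F02H6.t1 and T23F1.t2 had pooled signals of 168 and 159, and these are the only copies outside protein-coding genes. The other 9 lie in introns of such genes. Of those 9, 4 had a pooled summit of lower signal, namely R11G10.t2 (45.8), W09D6.t2 (38.4), Y71H2AM.t1 (36.5) and T22F3.t2 (28.6). ZK970.t1 and ZK970.t2 had a summit in replicate 2 alone, with signals of 24.0 and 16.9. The other 3 copies, W09D6.t1 in rsa-2, T22F3.t1 in pygl-1 and R11G10.t1 in avr-15, had none in any list, with the nearest pooled summit 292, 342 and 1622 bp away. T23F1.t2 shares its summit with the lysine gene T23F1.t1, whose start is 210 bp away, so its signal cannot be assigned to one gene. Another tRNA gene starts 108 bp from W09D6.t1 and 118 bp from T22F3.t1, and a summit is only a coarse position at that scale. Since the copies are identical, the 60 bases before each of the 2 strong copies and the 3 without a summit within 200 bp are printed for comparison. These bases run 5′ to 3′ and end at the base before the gene, all in lower case because nothing was searched in them. They are IV:14225042-14225101 (plus), V:15465297-15465356 (minus), III:11066967-11067026 (plus), V:3582260-3582319 (plus) and V:13509633-13509692 (plus).
F02H6.t1 upstream: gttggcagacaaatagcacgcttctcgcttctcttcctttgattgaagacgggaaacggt
T23F1.t2 upstream: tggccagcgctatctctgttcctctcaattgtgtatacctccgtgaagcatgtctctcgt
W09D6.t1 upstream: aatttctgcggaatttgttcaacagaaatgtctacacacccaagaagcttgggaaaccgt
T22F3.t1 upstream: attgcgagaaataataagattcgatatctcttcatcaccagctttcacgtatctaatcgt
R11G10.t1 upstream: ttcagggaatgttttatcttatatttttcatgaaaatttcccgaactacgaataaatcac

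In 2 other families every copy had a pooled summit, though the signals still varied. All 9 copies of the lysine gene printed as T23F1.t1 had a pooled summit, from 56.0 at F18C5.t1 to 159, 2.84 times apart, and 8 of them had one in both replicates. All 8 copies of the alanine gene printed as ZK622.t1 had one as well, from 37.1 at M03A1.t1 to 161, 4.34 times apart, and 6 were in the optimal list. In the threonine family printed as W02G9.t1, 6 of 8 copies had a pooled summit (54.7 to 149) and 5 were in the optimal list. F11H8.t1 and F36D4.t2, the remaining copies, each had a summit in 1 replicate, with signals of 29.0 in replicate 2 (rank 4344) and 18.4 in replicate 1 (rank 25192).

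Genes with many copies lay at a peak in a larger share than single genes. The pooled share was 62.8% (54 of 86, 51.7 to 73.0) for genes whose sequence occurs once among nuclear tRNA genes, 70.1% (61 of 87) for those with 2 to 9 copies and 81.0% (132 of 163, 74.1 to 86.7) for those with 10 or more. In replicate 1 the shares were 57.0%, 70.1% and 77.9%, and in replicate 2 they were 61.6%, 63.2% and 73.0%. The intervals of the outer classes did not overlap in the pooled list or in replicate 1 and did overlap in replicate 2. In the optimal list the shares were 16.3%, 10.3% and 19.6%, in a different order. The median pooled signals of the classes were 63.8, 63.8 and 67.3.

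Shares were close inside and outside host genes. Of the 188 genes inside introns of protein-coding genes, 139 (73.9%, 67.0 to 80.1) had a pooled summit, as did 102 of 139 intergenic genes (73.4%, 65.2 to 80.5) and 6 of 9 that overlap an exon. The intronic and intergenic shares were 71.3% and 69.1% in replicate 1, 68.1% and 69.1% in replicate 2, and 16.5% and 17.3% in the optimal list. Intronic genes on the strand of their host had a share of 74.8% (83 of 111) and those on the opposite strand 72.7% (56 of 77). The median pooled signal was 69.8 in introns and 63.5 at intergenic genes.

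Hosts with 3 tRNA genes differed in how many of them lay at a peak, and the part of the host in this was not tested. The 188 intronic genes lie in 152 hosts, 6 of which hold 3. In pxn-1, which encodes a peroxidasin, the lysine genes ZK994.t1 (126) and ZK994.t2 (110) and the threonine gene ZK994.t3 (115) all had strong pooled summits and were in the optimal list. In brd-1, the worm relative of the BRCA1 partner BARD1, all 3 had a summit in every list but the optimal one, from 76.2 to 80.5, and 2 of them shared it. In pash-1, whose product works with Drosha in miRNA processing, 3 glycine genes had no summit in any list. They are the only autosomal genes found with the anticodon CCC, and each has a sequence of 3 nuclear copies. The 401 bp around their starts had a GC content of 27.9% to 32.4%. Members with and without a pooled summit had medians of 42.4% and 41.6%. In nimk-1 the lysine gene F49C5.t4 had one (81.9) while the leucine gene F49C5.t3 and the tryptophan gene F49C5.t1 had none. In spe-9 and srv-16 all 3 genes had a pooled summit, from 45.6 to 86.0 and from 71.5 to 86.7.

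Arms and centres of the autosomes also had shares within the counting error of each other. C. elegans autosomes have gene-dense centres that recombine little and arms richer in repeats. With the central 50% of each autosome by length taken as centre, 126 of 170 genes there (74.1%, 66.9 to 80.5) and 121 of 166 genes on arms (72.9%, 65.5 to 79.5) had a pooled summit. The shares of centre and arm were 70.6% and 70.5% in replicate 1, 67.6% and 67.5% in replicate 2, and 17.1% and 15.7% in the optimal list. Single chromosomes departed from this in both directions. The pooled share was 62.2% in the centre and 82.8% on the arms of chromosome I, and 78.3% in the centre and 59.4% on the arms of chromosome V, with overlapping intervals in each case (44.8 to 77.5 and 64.2 to 94.2, 63.6 to 89.1 and 40.6 to 76.3). By whole chromosome the share ran from 70.5% on V to 79.7% on III.

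Nearly all members carried the letters searched for as promoter boxes of an RNA polymerase III gene. Letters of the A box were found in 327 (97.3%), beginning at base 8 in 303, of the B box in 319 (94.9%), and a TTTT run within 30 bp after the gene in 332 (98.8%). In windows of the same length at 17242 autosomal protein-coding starts these letters occurred in 25.1%, 1.50% and 31.0%. Of the 308 genes with all of them, 233 (75.6%, 70.5 to 80.3) had a pooled summit, and of the 28 genes lacking at least one, 14 (50%, 30.6 to 69.4) had one. The shares were 73.1% and 42.9% in replicate 1, with intervals that did not overlap (67.7 to 77.9 and 24.5 to 62.8), and 68.8% and 53.6% in replicate 2, with intervals that did (63.3 to 74.0 and 33.9 to 72.5). Lack of these letters does not show that a gene has no working box, and a match does not show one. The B box letters were searched over the whole gene. In the tryptophan gene sup-5 the 1st match began at base 25, against base 52 in F44A2.t1, also 72 bp long.

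Letters linked to Sp factors were present in or near a minority of the genes. The core GC box GGGCGG, searched on both strands of the 401 bp centred on each start, was found at 51 members (15.2%), against 8.72% of equal windows at protein-coding starts. A pooled summit was present at 40 of these 51 (78.4%) and at 207 of the other 285 (72.6%). The related CACCC was found at 135 (40.2%, against 22.6%), with pooled shares of 74.8% with it and 72.6% without. For CACCC the replicates went opposite ways, with 68.1% against 72.1% in replicate 1 and 76.3% against 61.7% in replicate 2. The GA repeat GAGAGA was found at 106 (31.5%, against 24.3%). Genes with it had a pooled summit in 83.0% of cases and genes without in 69.1%, with 84.0% and 64.3% in replicate 1, 73.6% and 64.8% in replicate 2, and 24.5% and 12.6% in the optimal list. TATAAA was found at 107 (31.8%, against 44.0%), with 81.3% and 69.9% in the pooled list but 62.6% and 69.9% in replicate 2. The window holds the tRNA gene itself, and some matches lie inside it. CACCC, read on the other strand, occurs in the proline sequence printed for F02H6.t1, so all 11 identical autosomal copies match, with or without a peak. GGGCGG occurs inside F10C1.t1. The part of the gene sequences in these shares was not tested. A match of letters is a description of the window and not a bound site.

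Genes whose 401 bp had a GC content above the members' median had a pooled summit in 75.8% of cases and the others in 71.3%, and in the optimal list the shares were 22.4% and 10.5%. Genes with a protein-coding start within 500 bp had 77.2% (71 of 92) and genes without 72.1% (176 of 244), and in the optimal list 22.8% and 13.9%. The 60 genes with another tRNA gene start within 500 bp had 70.0% against 74.3% for the 276 solitary genes in the pooled list, and 78.3% against 65.2% in replicate 2. The parts of GC content and of neighbouring promoters in the peaks were not tested. Of the members, 2 had a snoRNA or snRNA gene start within 500 bp, and without them the pooled share was 73.4%.

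Among the 89 genes without a pooled summit, the nearest one lay 208 to 19060 bp from the start (median 800 bp), within 500 bp for 28 of them. Just inside the 200 bp limit were the glycine gene K04C2.t1 (198 bp, signal 76.2) and the valine gene Y73B6BL.t2 (193 bp, signal 34.9), and just outside were the leucine gene F49C5.t3 (213 bp) and the lysine gene K08E7.t1 (208 bp). K08E7.t1 had a summit in replicate 2, with a signal of 27.0. Ordered by rank in the list of the one replicate that held them, the strongest genes seen in 1 replicate alone began with C12C8.t3. Next in replicate 1 were Y54G2A.t4 for aspartate (pooled signal 70.0), F32B4.t1 for cysteine (62.1) and T25E4.t1 for valine (61.4). After them came F49D11.t1 for glycine (60.1) in replicate 2, whose nearest summit in replicate 1 lay at 218 bp. F49D11.t1 shares its pooled and replicate 2 summits with its neighbour F49D11.t2, which had a summit in both replicates. Y54G2A.t4 lies 2728 bp from the strong aspartate gene Y54G2A.t3.

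Genes named for their genetics gave mixed values; they were picked after their values were seen. The tryptophan gene sup-5, known for amber suppressor mutations, was the strongest of its isotype, with a pooled signal of 108 (rank 193) and 49.4 and 52.7 in replicates 1 and 2. Identical to it in sequence, rtw-6 had 69.8 and sup-24 had 55.4, while sup-29 had no summit in any list, the nearest pooled one being 259 bp away. The glutamate genes rte-2 and rte-4 had 77.9 and 52.8.

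Other genes read by RNA polymerase III were compared from a fixed list. The RNA of RNase P, rpr-1, which trims tRNA 5′ ends, had a pooled signal of 362 (rank 6), more than 170, the highest value among the tRNA members, with 210 in replicate 1 and 151 in replicate 2. The related RNase MRP RNA gene mrpr-1 had 139 (rank 76) and the Y RNA gene yrn-1 64.5 (rank 1842), each with a summit in both replicates. Of 16 5S rRNA genes, most of them in tandem copies on chromosome V, 1 had a pooled summit, none had one in replicate 1 and 2 had one in replicate 2. The shares over all annotated nuclear genes were 14.3%, 14.3% and 13.9% in these lists. With so few genes, and the placing of reads that match several copies not given, these counts do not show an absence at 5S genes. The gene with the pooled summit, rrn-4.16 (31.6), lies on chromosome I, away from the tandem copies. It was also listed in replicate 2 (20.5), and the other gene listed there was a tandem copy (19.4). Protein genes of the machinery that makes tRNA gave 4 of 18 in the pooled list, 2 in replicate 1, 5 in replicate 2 and none in the optimal list. The 4 were the polymerase subunit genes rpc-2 (56.9), rpb-8 (42.0) and rpc-1 (37.6) and the tRNA 3′ end endonuclease gene hoe-1 (34.9). These shares of 18 stood beside 15.1% of autosomal protein-coding genes in the pooled list.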

How the data were processed

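Per the file headers and labels, the deposited files are 4 peak lists in narrowPeak format on assembly ce11: one per replicate, one on pooled reads and an optimal list thresholded on reproducibility. Which aligner, caller and thresholds were used is not given in the sources used here, and depth is unknown. The deposited signal value is a score on the authors' caller's scale, compared within a list only. Per the labels, fragments were sonicated. The same control entered every list, and no untagged strain was used here.

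Summits (peak start plus offset) were assigned to genes of Ensembl release 115, and isotypes came from RefSeq by matching coordinates (334 of 336 genes). The summit of highest signal within 200 bp of the start was kept. Coordinates are 1-based. Intervals are exact Clopper-Pearson at 95%. Scripts (Python 3.11.15, pandas 2.3.3, numpy 2.4.6, scipy 1.17.1) were tested on simulated data. Named genes are the 15 strongest members, the strongest of each isotype, the 5 strongest seen in 1 replicate, the members without a summit identical to one of the 15, and 2 either side of the limit. Families, hosts with 3 genes and symbol-named genes are exceptions. The members and lists were chosen with earlier results of these data known.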

Additional observations from a re-analysis of the deposited data

How the results depend on the processing

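The share of autosomal tRNA genes with a summit, 73.5%, was 60.4% with a window of 100 bp, 81.8% with 500 bp, 62.5% with the stronger 15000 peaks of the pooled list, 16.4% with the optimal list and 66.4% with 1 gene per identical sequence, and 67.6% to 70.5% with 1 replicate left out. The same settings, in that order, gave 59.6%, 82.5%, 61.4%, 15.7% and 59.3% on arms (72.9%), and 61.2%, 81.2%, 63.5%, 17.1% and 71.1% in centres (74.1%). They gave 60.6%, 80.3%, 66.0%, 16.5% and 67.1% in introns (73.9%), and 60.4%, 84.9%, 59.0%, 17.3% and 67.3% for intergenic genes (73.4%). With 1 replicate left out the ranges were 67.5% to 70.5% on arms, 67.6% to 70.6% in centres, 68.1% to 71.3% in introns and 69.1% for intergenic genes in each. Without genes near a protein-coding start the share was 70.3% on arms against 73.8% in centres, and 68.6% for intergenic genes against 74.3% in introns. With the centre narrowed to the middle of 3 equal parts it was 79.1% against 70.8% outside it, and outside any annotated gene it was 66.2% against 75.4% inside one. With 1 gene per sequence the arms stood further below the centres than with all genes. Among the 3000 strongest peaks were 57 of the 137 genes kept with 1 per sequence, against 152 of all 336. The median summit offset of 22 bp was 14 bp with 100 bp, 21 bp with 500 bp and with the stronger 15000, 27 bp with the optimal list and with peaks overlapping the gene, 14.5 bp without protein-coding starts nearby and 20 bp with 1 gene per sequence. The cause of these shifts was not tested. With 2 replicates their spread is poorly known, and it was 0 for the summit offset, for intergenic genes and for 5 isotypes, whose replicate values were equal. No paired analysis was possible because there is 1 group. Depth is unknown, so a gene without a summit is not shown to lack the protein.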
